A study of Mus musculus with 12 samples.

Results

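A set of 8 genes that carry arginine into the cell, turn it into nitric oxide, recycle the citrulline left over, or make and regenerate the cofactor tetrahydrobiopterin was followed in mouse pancreatic tumor cells with and without recombinant DKK3 protein (rDKK3). Its genes were chosen by function, with earlier results of this count table known, from a list of 10 whose rows were all found, once each, among 57278 genes in the table. Described here are Slc7a2, Nos2, Ass1, Gch1, Gchfr, Pts, Spr and Qdpr. Since the treatment contrast was in view when they were chosen, their responses are given as a description and the adjusted p-values beside them support nothing further.

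The cells were 3 DDKC lines, DDKC_9750, DDKC_9790 and DDKC_9804, called lines A, B and C here. All 3 are Dkk3-/- from a constitutive knockout and carry Ptf1aCre/+, Cre from the pancreas-specific Ptf1a locus, together with a Cre-activated tumor allele. Neither condition thus has an intact Dkk3 allele, and both share the other alleles. Each line was sequenced untreated and with commercial rDKK3, in 2 libraries per line and condition, 12 libraries in all. The dose and the duration of rDKK3 for these libraries are not given in the sources used here, nor is a vehicle for the untreated cells. Every value below is from cells in culture, and 3 lines of a single genotype are the only independent samples.

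The pathways are linked. Slc7a2 is a cationic amino acid transporter that brings in arginine, the substrate of the nitric oxide synthases. Inducible nitric oxide synthase, the product of Nos2, is known for its activity after inflammatory stimuli in macrophages and epithelia, makes citrulline beside nitric oxide, and works only with tetrahydrobiopterin bound.

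Library totals ran from 7520741 to 24541083 counts in untreated and from 3822987 to 11567095 in treated cells, and the treated libraries were the shallower ones of lines A and C. The pair of libraries from one line and condition agreed within sampling noise once a gene-wise shift common to all 6 pairs was allowed for (mean deviance per degree of freedom 0.78 over 12979 genes, 6.44 without the shift). They were therefore summed and counted as 1 sample, which gives n = 3 lines per condition. In a sum, 3 counts corresponded to between 0.0856 and 0.291 CPM (counts scaled to a common library size), which is the detection floor used below. Dkk3 had 0 counts in 11 libraries and 1 count in the other, a treated library of line A. In Dkk3-null acinar cells the study reports that an alternative intracellular isoform was still transcribed. The cause of the low Dkk3 counts here was not tested. Of the epithelial markers, Krt8, Krt18, Krt19, Cdh1 and Sox9 were strongly counted, while Epcam lay between 0.411 and 2.04 CPM in every sum. Leukocyte markers summed to between 9.57 and 29.1 CPM untreated and between 11.0 and 46.1 CPM with rDKK3 over 8 genes. Nearly all of that was Cd68 and Csf1r, and Adgre1, Lyz2 and Tyrobp were at 0 in every library.

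Responses were compared in 3 ways over the 15165 genes that passed a filter on low counts, each with edgeR's quasi-likelihood test and Benjamini-Hochberg adjustment at 0.05. The fit on sums, with line as a block and 3 lines as replicates, called 0.00659% of genes (1 gene). A fit that takes the 12 libraries as separate samples called 7.95% of genes higher and 10.1% lower with rDKK3, with p-values that are too small if paired libraries are repeats of one culture. A test of whether the response differed between lines called 49.3% of genes, and as its error comes from paired libraries alone it compares these cultures only. All 8 genes described passed the filter. The fit on sums called none of them and had 4 of them at an unadjusted p under 0.05, against 8.53% of all genes. The members were chosen with this contrast in view, and Nos2, among the 4, passed the filter only through treated line A. Their share is therefore a description and no sign of enrichment. The 12-library fit called Slc7a2 and Nos2 higher and Gchfr and Qdpr lower.

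Upstream sequences are shown for Gch1 and Pts, whose ratio of treated to untreated CPM was highest in line A. Pts was lower with rDKK3 in line C. Those of the pair called lower with 12 libraries (Gchfr and Qdpr) are set beside them. All were picked after their values were seen. Promoters of 6 of the 8 genes were in the RefSeq table used (build GRCm38.p6), and each matched GRCm39 once. Slc7a2 and Nos2 had no entry. Each run starts 250 bases before the RefSeq start, ends where GENCODE annotates the gene's first exon, and has GC boxes (GGGCGG on either strand) in capitals.
Gch1, chr14:47426902-47427120, minus strand: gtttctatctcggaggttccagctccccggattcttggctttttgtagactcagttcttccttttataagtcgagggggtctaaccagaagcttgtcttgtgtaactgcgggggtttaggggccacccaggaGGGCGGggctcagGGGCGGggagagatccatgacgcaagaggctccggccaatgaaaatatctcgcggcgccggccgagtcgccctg
Pts, chr9:50440025-50440206, minus strand: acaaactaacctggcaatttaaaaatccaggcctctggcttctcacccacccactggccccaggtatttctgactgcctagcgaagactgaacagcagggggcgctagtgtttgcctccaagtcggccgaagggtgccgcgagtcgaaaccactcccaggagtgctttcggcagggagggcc
Gchfr, chr2:118998019-118998239, plus strand: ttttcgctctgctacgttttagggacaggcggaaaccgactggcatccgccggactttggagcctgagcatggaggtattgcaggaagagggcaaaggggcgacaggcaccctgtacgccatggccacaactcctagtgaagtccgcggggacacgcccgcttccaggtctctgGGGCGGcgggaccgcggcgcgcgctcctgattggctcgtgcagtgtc
Qdpr, chr5:45607579-45607821, minus strand: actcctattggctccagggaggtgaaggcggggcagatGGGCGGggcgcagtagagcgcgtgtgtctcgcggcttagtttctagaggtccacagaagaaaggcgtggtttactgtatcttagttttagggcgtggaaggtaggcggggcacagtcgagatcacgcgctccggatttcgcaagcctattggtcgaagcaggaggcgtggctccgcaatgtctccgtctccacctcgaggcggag

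Over the full 250 bases, all 6 promoters held a GC box, compared with 32.7% of 32851 promoters in the table, which also holds non-coding genes. Gch1 alone held a match to the kappaB consensus, GGGGCTCCCC, from 10 bases to 1 base before its RefSeq start and inside the exon that GENCODE annotates there, compared with 3.9% of promoters. None of the 6 held the AP-1 letters TGANTCA (6.75% of promoters) or the GAS letters TTCNNNGAA (7.02%), which says only that these letters are not in these windows. The GC box of Pts lay within its annotated exon and is not in the run above, and an exon of the lncRNA Gm47077 on the opposite strand covers 147 bases of its window. All motifs were searched on both strands, and a match is not evidence of binding.

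Arginine uptake precedes the other steps, and Slc7a2 (chromosome 8, 41315433 to 41375345, GRCm39) was higher with rDKK3 in each line. In line A its counts were 56 and 79 untreated and 142 and 225 treated, or 4.49 and 35.6 CPM for the sums. Line B had 43 and 107 counts untreated and 124 and 181 treated, or 6.45 and 16.5 CPM. In line C the gene was barely counted, with 4 and 2 counts untreated and 3 and 5 treated, or 0.171 and 0.657 CPM. The treated level thus exceeded the untreated level in 3 of 3 lines, but line C with rDKK3 stayed under lines A and B without it, so the conditions overlapped. In bulk RNA, a change in the number of cells with a transcript and a change in RNA per cell cannot be told apart. The ratio of treated to untreated CPM was 7.94 for line A (95% exact interval 6.50 to 9.75), 2.56 for line B (2.10 to 3.13) and 3.84 for line C (1.17 to 13.4), where the intervals cover counting error only. In line C the log2 ratio was 1.94 for the sums, 0.86 from the lower-numbered libraries alone and 3.01 from the higher-numbered ones. Across lines the log2 fold change was 2.13 (SE 0.40) and 1.46 without line A, with an adjusted p of 0.578 in edgeR's fit on sums and 0.000703 with 12 libraries. The response differed between lines (adjusted p = 0.00051, edgeR interaction test), though this was not called without line A or without line B, and the intervals of lines A and B do not meet.

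Nos2 (chromosome 11, 78811613 to 78851080) was detected above the floor in a single line and a single condition. In line A with rDKK3 it had 64 and 84 counts, a level of 14.4 CPM. Untreated line A had 1 and 0 counts. Line B had 0 and 1 counts untreated and 1 and 1 treated. Line C had 0 and 1 counts untreated and none treated, which at this depth allows up to 0.246 CPM. Both treated libraries of line A therefore stood apart from the other 10 libraries, none of which exceeded 1 count. Within line A the ratio of treated to untreated CPM was 432, with an exact interval from 76.4 to 17189 that reflects the single untreated count. The fitted log2 fold change over the 3 lines, 6.29 (SE 1.64), leans on near-zero denominators, was 0.51 without line A and reached 8.33 with counts thinned to equal depth. Its adjusted p was 0.578 in edgeR's fit on sums and 0.00131 with 12 libraries, and the interaction test gave 0.0108. Nos2 passed the filter on low counts only through the 2 treated libraries of line A, so these p-values say nothing beyond its counts. Whether the other lines express Nos2 below the floor was not detectable at this depth.

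Nos2 is also a macrophage gene, so the leukocyte markers are set beside it. In line A the 8 leukocyte markers summed to 9.57 CPM untreated and 11.0 CPM with rDKK3, most of it Csf1r (7.51 and 7.28 CPM). Cd68 went from 2.03 to 3.01 CPM there and was higher in 3 of 3 lines (adjusted p 0.578 on sums and 0.00142 with 12 libraries, edgeR). Fcer1g had 1 and 5 counts in line A, and Ptprc and Itgam 0 and 1, while Adgre1, Lyz2 and Tyrobp were at 0 in all 12 libraries. The sum in line B was 29.1 and 46.1 CPM, with Nos2 at or under the floor. Of the 6 epithelial markers, Krt8 (812 against 1261 CPM in line A), Krt18 and Krt19 were lower with rDKK3 in 3 of 3 lines and Sox9 was higher in 3 of 3 (146 against 108 CPM in line A). Cdh1 was higher in lines A and C and Epcam showed no common direction. The part of these markers in the members' values was not tested.

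**Figure D1:**
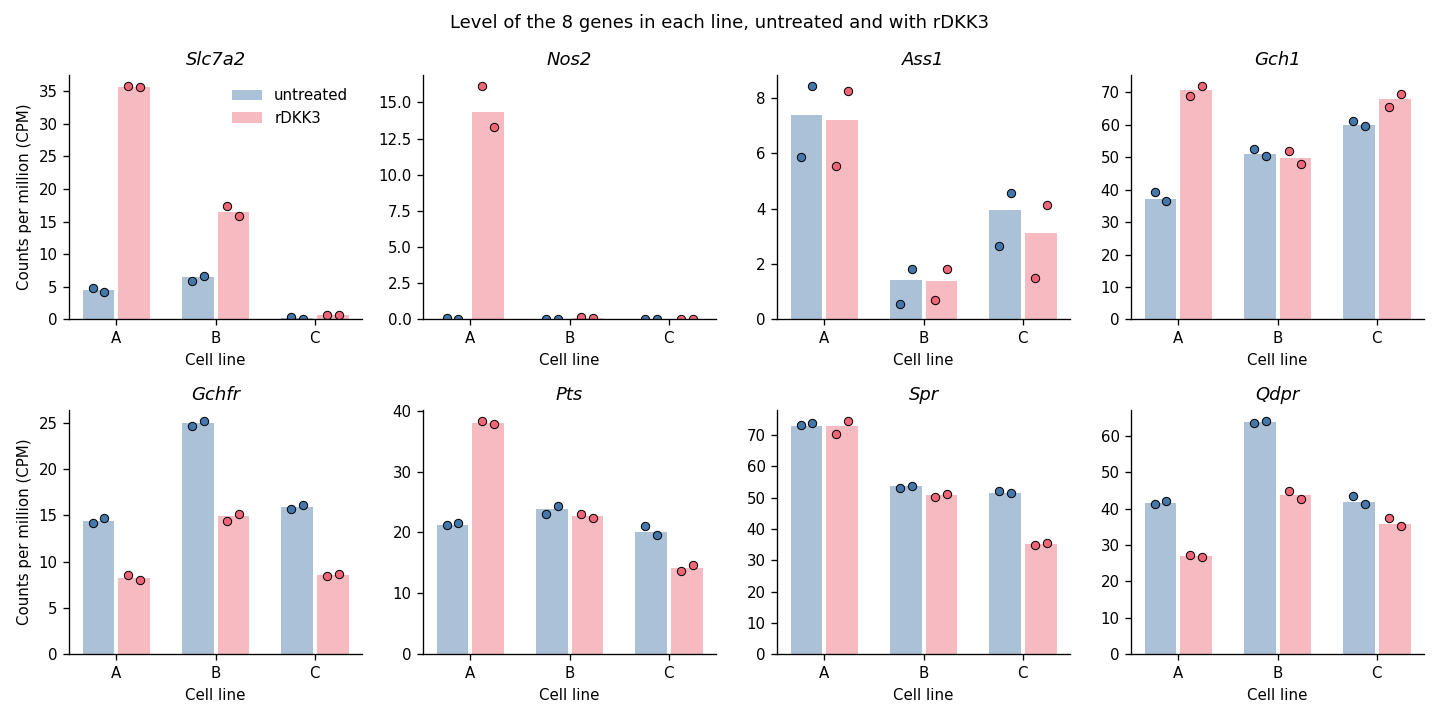
Level of each of the 8 genes in CPM (y axis, linear, from 0, a separate scale per gene) by cell line and condition. Bars are the sums of 2 libraries and points the single libraries. Nos2 reaches 14.4 CPM only in line A with rDKK3, whereas the treated bars of Gchfr and Qdpr lie under the untreated bars in all 3 lines.

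Ass1 (chromosome 2, 31360219 to 31410684), argininosuccinate synthase, joins citrulline to aspartate in the first step back to arginine. Its level differed far more between lines than between conditions. Untreated and treated sums were 7.38 and 7.18 CPM in line A and 3.94 and 3.12 CPM in line C. Line B was lowest, at 1.42 and 1.41 CPM. The order A, C, B was the same in both conditions, and the exact intervals of the 3 untreated levels do not meet. The log2 fold change was -0.13 (SE 0.23), with adjusted p-values of 0.877 on sums and 0.841 with 12 libraries (edgeR), and the interaction test gave 0.945. Ass1 was also the member with the largest shift between paired libraries among those with 20 or more counts on average. The higher-numbered library of a pair had the higher CPM in 6 of 6 pairs, by 1.43- to 3.28-fold, a larger shift than in 98.0% of genes. Each condition of each line has one library of either number. Sums weight the libraries by depth, however, so the shift need not cancel in them. In line B the log2 ratio of Ass1 was -0.013 on sums, 0.363 from the lower-numbered libraries and -0.005 from the higher-numbered ones. In lines A and C the ratio on sums lay between those of the single libraries.

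Tetrahydrobiopterin is made from GTP in 3 steps, by GTP cyclohydrolase (Gch1), 6-pyruvoyltetrahydropterin synthase (Pts) and sepiapterin reductase (Spr). The first step is rate-limiting, and Gchfr encodes a regulatory protein that mediates its feedback inhibition. After use, the cofactor is regenerated by dihydropteridine reductase (Qdpr). All 5 genes were well counted, with at least 85 counts in each sum.

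Gch1 (chromosome 14, 47391352 to 47426870) was higher with rDKK3 chiefly in line A. The 2 libraries had 39.2 and 36.5 CPM untreated and 69.0 and 71.8 CPM treated there. The sums of line B were 51.1 and 49.7 CPM, and those of line C 59.95 and 67.9 CPM. Untreated line A had the lowest Gch1 level of the 6 sums and treated line A the highest, though its interval (65.6 to 76.0 CPM) overlaps that of treated line C (63.4 to 72.7 CPM). The ratio of line A was 1.90 (exact interval 1.73 to 2.08), against 0.972 for line B (0.891 to 1.06) and 1.13 for line C (1.04 to 1.23). Over 3 lines the log2 fold change was 0.35 (SE 0.21) and was not called in either fit with the filter on low counts (adjusted p 0.663 on sums and 0.0974 with 12 libraries, edgeR), while the interaction test gave 2.98e-05 and was not called without line A.

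Pts (chromosome 9, 50432917 to 50440024) was higher in line A and lower in line C. Its untreated levels were 21.2, 23.9 and 20.02 CPM in lines A, B and C, where the exact intervals of lines B and C narrowly do not meet. With rDKK3 the levels spread to 38.0, 22.8 and 14.2 CPM. The ratios were 1.79 (1.57 to 2.03), 0.952 (0.837 to 1.08) and 0.710 (0.597 to 0.839). These opposite directions leave a log2 fold change of 0.10 (SE 0.28) over the 3 lines, with an adjusted p of 0.927 on sums (edgeR), and without line A it was -0.27. The interaction test gave an adjusted p of 7.56e-06.

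Spr (chromosome 6, 85107158 to 85114748) differed with treatment in line C. Line A had 72.9 and 72.7 CPM and line B 53.5 and 50.9 CPM. Line C had 51.5 and 35.1 CPM. The intervals of the ratio included 1 in lines A and B, and in line C the ratio was 0.683 (0.613 to 0.759). The log2 fold change over lines was -0.21 (SE 0.15), with adjusted p-values of 0.712 on sums and 0.0941 with 12 libraries, and 0.000174 in the interaction test (all edgeR), which was not called without line C. In treated line A, the 3 synthesis genes therefore stood at ratios of 1.90, 1.79 and 0.998 in pathway order.

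Gchfr (chromosome 2, 118998254 to 119002871) was lower with rDKK3 by nearly the same ratio in every line. Line A had 14.4 CPM untreated and 8.25 CPM treated, line B 25.0 and 14.9 CPM, and line C 15.9 and 8.54 CPM. The ratios were 0.572 (0.448 to 0.723), 0.596 (0.515 to 0.689) and 0.537 (0.431 to 0.663). Treated line B was as high as untreated line A, so the conditions overlapped across lines although each line had the treated level below. The log2 fold change was -0.81 (SE 0.15). Its unadjusted p of 0.00231 ranked 43 among all genes on sums, yet the adjusted p was 0.578, and with 12 libraries it was 4.89e-05 (edgeR). The interaction test gave an adjusted p of 0.808, one of 2 tested members, with Ass1, for which a line-dependent response was not called.

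Qdpr (chromosome 5, 45591363 to 45607578) was also lower in each line. Its untreated sums were 41.5, 63.8 and 41.9 CPM in lines A, B and C, and its treated sums 26.9, 43.7 and 35.9 CPM. The ratios were 0.647 (0.566 to 0.738), 0.685 (0.628 to 0.746) and 0.857 (0.768 to 0.954), the last of them closest to 1. The log2 fold change was -0.47 (SE 0.13), with adjusted p-values of 0.578 on sums, 0.00146 with 12 libraries and 0.00459 in the interaction test (edgeR), which was not called without line C or by DESeq2's likelihood ratio test. With Spr and Ass1, whose ratios were close to 1 in some lines, 4 of the 8 members were lower in 3 of 3 lines, and 1 (Slc7a2) was higher in 3 of 3. Over all genes tested, these shares were 18.1% and 14.2%. Spr and Ass1 count here only by the sums. The log2 ratio of Spr in line A was 0.0076 with RLE scaling and 0.011 from the higher-numbered libraries alone. That of Ass1 in line B was 0.363 from the lower-numbered libraries alone.

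**Figure D2:**
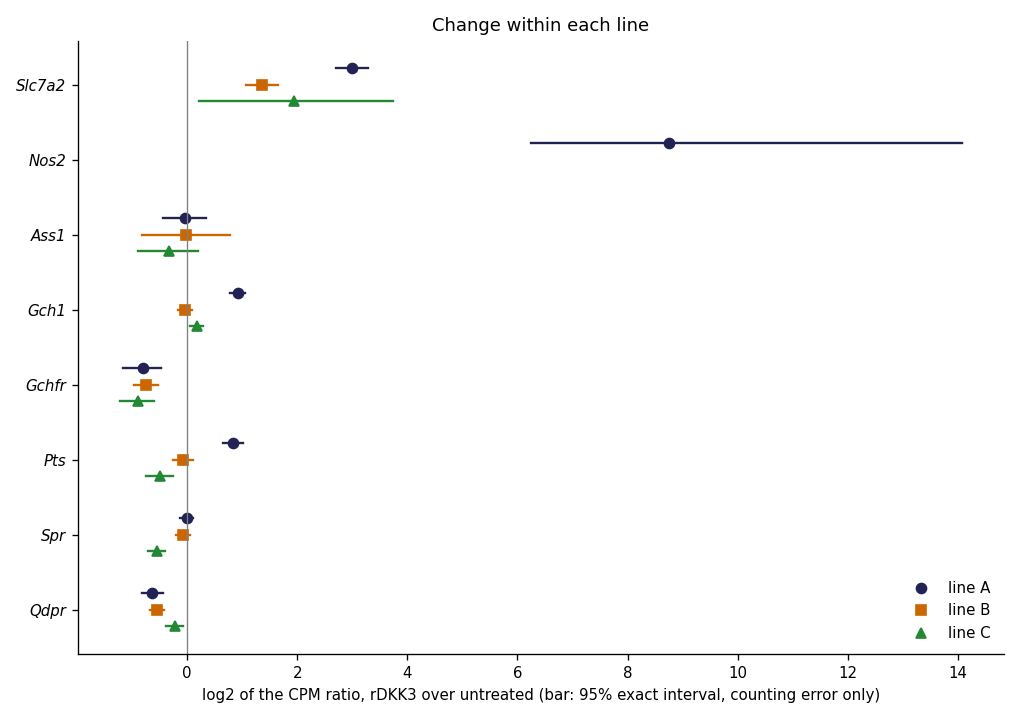
Log2 ratio of treated to untreated CPM within lines A, B and C (x axis) for the members with counts in both conditions and more than 3 in one of them. Horizontal bars are 95% exact intervals for counting error. The 3 ratios of Gchfr nearly coincide, while those of Gch1 and Pts separate line A from lines B and C.

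Because Gchfr acts on the Gch1 product, the ratio of Gch1 to Gchfr counts was taken within each sum, where library size cancels. Line A went from 2.58 untreated to 8.56 treated, line B from 2.04 to 3.33, and line C from 3.77 to 7.95. The ratio was thus higher with rDKK3 in 3 of 3 lines, by 3.32-, 1.63- and 2.11-fold, and the exact intervals of treated and untreated sums did not meet within any line. The mean log2 difference was 1.17 ± 0.52 (SD, n = 3 lines), and an exact two-sided sign-flip test gave p = 0.25, the smallest that 3 pairs allow. In line B Gchfr gave more than the whole difference, with a log2 ratio of -0.75 against -0.04 for Gch1. In line A both genes contributed, with 0.92 for Gch1 and -0.81 for Gchfr.

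**Figure D3:**
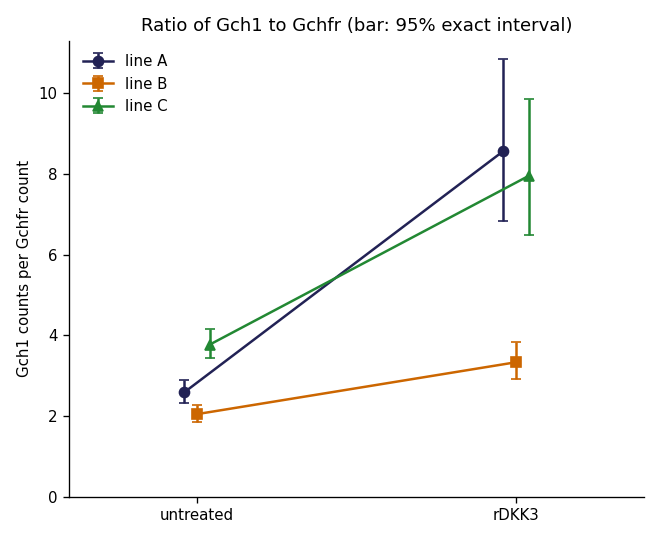
Gch1 counts per Gchfr count (y axis, from 0) in untreated and rDKK3-treated sums of lines A, B and C. Bars are 95% exact intervals for counting error. Each line has a higher ratio with rDKK3, from 2.58 to 8.56 in line A, and line B has the smallest difference.

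Levels can be compared between genes only per length of exon. On that scale, the means over the 3 untreated sums were 28.0 CPM per kilobase for Gchfr, 27.8 for Qdpr, 26.4 for Spr, 16.2 for Gch1 and 13.5 for Pts. With rDKK3 the order was another, with Spr at 23.6 CPM per kilobase, Gch1 at 20.6, Qdpr at 20.1, Gchfr at 16.04 and Pts at 15.5. Neighbours in either order overlapped over the lines, except that every untreated sum of Spr exceeded every untreated sum of Gch1. Ass1 was at 1.57 CPM per kilobase untreated and 1.44 with rDKK3, Slc7a2 at 0.377 and 1.79, and Nos2 at 0.0081 and 1.12, so that the mean of Slc7a2 lay under that of Ass1 untreated and over it with rDKK3, with overlapping sums in both conditions. The cofactor genes were thus counted in all 3 lines, whereas Slc7a2 and Nos2 reached over 1 CPM per kilobase only in treated sums. In treated line A these were 3.63 CPM per kilobase for Slc7a2 and 3.32 for Nos2, and in treated line B 1.68 for Slc7a2 and 0.025 for Nos2.

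The genes whose levels most resembled those of Nos2 over the 6 sums, by Pearson correlation of log2 CPM among 12426 protein-coding genes, were Mocs2, Sod2, Slc34a2, Stra6l and Saa3, with r from 0.991 to 0.996. The 6 points share libraries and depth, and the measure is set almost entirely by the one high sum, so r is a description. Over the 12 libraries, 4 of these genes stayed among the 5 most like Nos2, while Mocs2 ranked 19 (r = 0.973). Sod2, the mitochondrial superoxide dismutase, was at 191 CPM in treated line A and between 35.6 and 47.4 CPM in the other sums. Saa3, an acute-phase serum amyloid A gene, had 3858 counts in treated line A and 1 count in all other sums together. Slc34a2, a phosphate transporter, and Stra6l had 43 and 86 counts there and none elsewhere. Mocs2, an enzyme of molybdenum cofactor synthesis, was at 50.1 CPM there and between 23.5 and 25.0 CPM elsewhere.

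Other genes of the pathways were taken from 4 lists by function, 43 genes of which 42 were in the table and 33 passed the filter. None was called by edgeR's fit on sums, in which 2 (Oaz1 and Gamt) had an unadjusted p under 0.05, against 8.53% of all genes. The 12-library fit called 1 of the 33 higher and 4 lower, against 7.95% and 10.1% of all genes, so these shares lie near the background. The median log2 fold change of the 33 was -0.11, against -0.01 over all genes tested and -0.02 over the 8 members.

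Among the 8 arginine and cationic amino acid transporters, Slc7a1, the constitutive arginine carrier, was called higher with 12 libraries. Its levels were 146, 199 and 242 CPM in untreated lines A, B and C and 183, 212 and 337 CPM with rDKK3, with a log2 fold change of 0.30 (SE 0.13; adjusted p 0.605 on sums and 0.01 with 12 libraries, edgeR). In counts not scaled for length, Slc7a1 exceeded Slc7a2 in every sum. Slc3a2, the heavy chain shared by several amino acid exchangers, and its partner Slc7a6 did not move in one direction over lines, with log2 fold changes of 0.28 (SE 0.21) and -0.11 (SE 0.20).

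Of the 12 genes of nitric oxide synthesis, citrulline recycling and their regulators, 7 were tested. Asl, which completes the return of citrulline to arginine after Ass1, was lower in 3 of 3 lines (49.4 to 41.9, 34.2 to 30.8 and 42.4 to 30.8 CPM), with a log2 fold change of -0.28 (SE 0.13) and adjusted p-values of 0.611 on sums and 0.00776 with 12 libraries (edgeR). Ddah2, which degrades an endogenous inhibitor of nitric oxide synthases, and Nosip, a protein that binds the endothelial synthase, were at -0.25 (SE 0.15) and -0.21 (SE 0.14). Neither was called in the fit on sums or with 12 libraries. Of the other synthases, Nos1 did not pass the filter, and Nos3 lay between 0.884 and 4.27 CPM. In line C Nos3 had 31 counts untreated and 37 treated, a ratio of 3.44 (2.07 to 5.73). Its ratios were 0.803 (0.372 to 1.60) in line A and 1.20 (0.868 to 1.65) in line B. Gucy1b1, a subunit of the nitric oxide receptor guanylate cyclase, had no counts in any library, and its partner Gucy1a1 had 3.

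Among the genes of polyamine, proline and creatine metabolism, Oat, which turns ornithine toward proline and glutamate, and Gamt, the last enzyme of creatine synthesis, were called lower with 12 libraries. Oat had a log2 fold change of -0.21 (SE 0.13; adjusted p 0.672 on sums and 0.0364 with 12 libraries, edgeR). It was lower in lines B and C and slightly higher in line A (91.5 to 95.04 CPM). Gamt was lower in 3 of 3 lines, with -0.73 (SE 0.29; 0.585 and 0.0197). Oaz1, the antizyme that restrains polyamine synthesis, was at -0.58 (SE 0.12) and lower in 3 of 3 lines (172 to 132, 207 to 137 and 184 to 109 CPM), without passing either fit (0.578 and 0.0849). Sat1, a polyamine-catabolizing enzyme, and Aldh18a1, of proline synthesis, had the highest CPM of the list, not scaled for length, with -0.08 (SE 0.19) and 0.40 (SE 0.20).

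Of 7 genes of biopterin synthesis and use in the table, 4 were tested. Pcbd1, which recycles the hydroxylated cofactor ahead of Qdpr, was lower in 3 of 3 lines, most in line C (64.8 to 29.8 CPM). Its log2 fold change was -0.47 (SE 0.23; adjusted p 0.620 on sums and 0.034 with 12 libraries, edgeR). Its relative Pcbd2 and Cbr1, a carbonyl reductase that can bypass a step of the pathway, had -0.32 (SE 0.25) and -0.16 (SE 0.26), and neither was called in the fit on sums or with 12 libraries. Of the enzymes that use the cofactor, Th, Tph1 and Tph2 had at most 1 count in any sum. Agmo, which cleaves ether lipids, had 70 counts untreated and 74 treated in line A, a ratio of 3.09 (2.20 to 4.34). Line C had 94 and 8, a ratio of 0.245 (0.103 to 0.503), and line B none. Agmo was named after its values were seen.

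**Figure D4:**
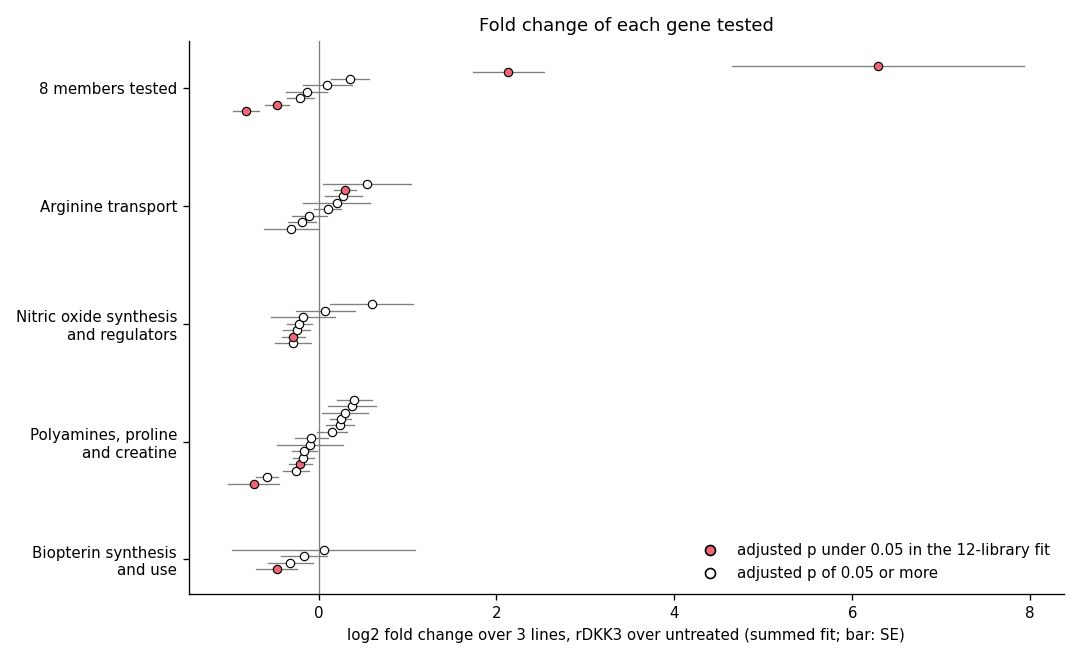
Log2 fold change over 3 lines from the fit on sums (x axis) for the 8 tested members and the 33 tested pathway genes by list, with SE as bars. Filled points had an adjusted p under 0.05 with 12 libraries. Apart from Slc7a2 and Nos2, every point lies between -0.81 and 0.60.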

How the data were processed

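Per the labels and the study's methods, libraries were made from total RNA with a strand-marking kit, aligned by the authors with STAR 2.7.9a to GRCm39, and deposited as raw gene counts on basic GENCODE M32 annotation, counted by strand with secondary alignments ignored. All 12 count columns were mapped to samples by title.

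Groups came from the treatment label and lines from the titles. Genes were kept by filterByExpr (minimum count 10) over 6 groups of line and condition, and TMM factors scaled CPM. Tests used edgeR 4.0.16 with the line as a block. Lines pair the samples, being the same cells: deviations from condition means correlated at 0.82, 0.87 and 0.80 within lines A, B and C. Alternatives were DESeq2 1.42.0, RLE factors, single libraries of a pair, equal depth, no filter, no block and leaving out each line. Scripts were tested on simulated data.

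The members and lists were chosen with earlier results of these data known. Some items of the set, the lists and the genotype are not reported here. Named beside the 8 members described are pathway genes called with 12 libraries, the 3 of each list with the highest CPM, and the 5 genes most like Nos2. Counts of a few uncalled genes were added after their values were seen. Exon lengths are unions over basic GENCODE M39 transcripts. Nothing shows that paired libraries came from separate cultures, so p-values of the 12-library fit may measure technical spread. PCR reads without molecular identifiers are not independent molecules, so intervals and floors cover counting error only. With 3 lines, an exact paired test cannot go below p = 0.25.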

Additional observations from a re-analysis of the deposited data

Results flagged for a closer look

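The response to rDKK3 differed between lines A, B and C for 6 of the 8 members tested, by edgeR's interaction test over 12 libraries with Benjamini-Hochberg adjustment over all genes. The adjusted p was 7.56e-06 for Pts, 2.98e-05 for Gch1, 0.000174 for Spr, 0.00051 for Slc7a2, 0.00459 for Qdpr and 0.0108 for Nos2. Of the 33 other pathway genes tested, 23 passed this test. Among the 14 of them named by rule, for their level or a call with 12 libraries, 12 passed, and Asl (0.0643) and Oaz1 (0.882) did not. Of 2 more tested pathway genes whose values were given after being seen, Agmo passed (0.000547) and Nos3 did not (0.0645). It gave 0.00040 for Slc7a1, 2.87e-05 for Slc7a6 and 1.17e-06 for Slc3a2 of the transporters, and 0.00467 for Ddah2 and 0.00696 for Nosip of the nitric oxide genes. It gave 4.41e-06 for Sat1, 0.00155 for Oat, 2.26e-06 for Aldh18a1 and 0.00272 for Gamt of the polyamine, proline and creatine genes, and 2.34e-05 for Pcbd1, 0.00181 for Pcbd2 and 0.000107 for Cbr1 of the biopterin genes. Since 49.3% of all genes were called by this test and its error comes from libraries that may be repeats of one culture, these values describe 3 pairs of cultures and do not set the members apart from other genes.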

How the results depend on the processing

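No member was called by edgeR on sums, and the same held with either library of a pair alone, with RLE factors, at equal depth, without the replicate block and without each line in turn. Against that 0, 4 members were called with 12 libraries, 1 (Slc7a2) by DESeq2 and 2 (Slc7a2 and Nos2) with no filter on low counts. For the other pathway genes the count of 0 became 5 with 12 libraries and 1 (Oaz1) by DESeq2. Over all genes, 1 was called on sums, 6 with only the lower-numbered libraries, 103 by DESeq2, 90 with no filter, and 0, 0 and 2 without lines A, B and C. The 4 members called with 12 libraries became 0 with no replicate block, when the called genes went from 2744 to 0 with 1151 at an unadjusted p under 0.05, and between 4 and 5 without single lines. Nos2 was not called there without line A, when Spr was, and Gch1 was called there without line B. With no filter on low counts 6 were called, Gch1 and Spr being added, among 3658 genes. The 6 line-dependent responses became between 3 and 5 without single lines, not called being Slc7a2, Nos2 and Gch1 without line A, Slc7a2 without line B, and Spr and Qdpr without line C. Qdpr was also not called by DESeq2's likelihood ratio test.

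The log2 fold change of Nos2 on sums, 6.29, was 0.51 without line A, 3.56 by DESeq2, 8.33 at equal depth and at most 7.32 in the other alternatives, that of Slc7a2 1.46 without line A, that of Gch1 0.08 without line A, and that of Spr -0.04 without line C. Leaving out single lines reversed 4 directions, none called in any such setting: the log2 fold change ran from -0.27 (without line A) to 0.38 (without line C) for Pts, from -0.25 (without C) to 0.18 (without A) for Slc7a6, from -0.52 (without A) to 0.081 (without B) for Cbr1, and from -0.32 (without A) to 0.028 (without B) and 0.065 (without C) for Sat1. The cause of these differences was not tested. Of 96 member values under alternatives, 86 kept direction and side of the threshold, 7 passed it, 1 reversed and 2 (Nos2 and Ass1 by DESeq2) had no adjusted p. Depth limits Nos2, whose sums outside treated line A held at most 2 counts.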
